A study of Mus musculus with 48 samples.

Results

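Gene expression in the liver of mice under timed sleep restriction (TSR, labelled SR) was compared between mid dark phase, ZT19, and ZT7, the first sampling time after the daily handling window had closed. ZT is Zeitgeber time, counted in hours from lights on. The comparison rests on 6 of the 48 arrays of the series, TSR ZT19 replicates 1 to 3 and TSR ZT7 replicates 1 to 3, and on every one of the 24261 probe sets that carry a gene symbol, which cover 21360 genes. All mice were male Bl6J, 10 to 12 weeks old by the labels. TSR mice were kept awake from ZT0 to ZT6 by gentle handling for 5 days, left undisturbed for 2 days and handled again for 5 days, while control mice were not disturbed. Food was freely available to both groups at all times. By the study's methods tissue collection started in an evening, so the ZT19 mice were taken before the ZT7 mice and had not been handled on the morning the latter had. Time of day, time since handling and order of collection therefore cannot be told apart in TSR mice alone. The whole series spans liver and WAT at ZT1, ZT7, ZT13 and ZT19, with 3 arrays in each of its groups. Nothing in the labels says that each array is a separate mouse, so the p-values measure the spread between arrays. In the main fit that spread was estimated over all 24 liver arrays, controls included.

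The liver clock is a transcriptional feedback loop. CLOCK and BMAL1, the latter encoded by Arntl, bind E-box elements and drive the Per and Cry genes, whose products shut that activity down again. The same pair drives Nr1d1 and Nr1d2, which encode REV-ERB repressors that hold down Arntl and Cry1, whereas ROR receptors act on the same elements in the opposite direction. Dbp is a directly driven output factor. In liver this loop runs alongside rhythms of feeding, insulin and glucocorticoids, which set much of the daily course of glycogen, lipid and cholesterol metabolism.

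E-boxes are shown first, as a description. Called genes that hold one near the start site include the clock gene Cry1, the glycogen gene Ppp1r3c and the autophagy gene Atg14. The letters CACGTG, which read the same on either strand, were searched in RefSeq promoter windows of 250 bases before to 50 bases after each start site (build GRCm38.p6). The motif was present in 6 of the 78 genes with a window that rose at ZT19 (7.69%), in 11 of the 76 that fell (14.5%) and in 1473 of the 15723 genes on the array with a window (9.37%). A match describes the letters in the window and is no evidence of binding. The stretches of 26 bases around the motif, in capitals, are given for the 8 genes that hold it and changed by at least 0.7 on the log2 scale. The 5 that rose come first.
Cry1: tgccggtggtCACGTGgggtgcatgc
Lonrf3: tggtaggagtCACGTGgttgcgtttt
Ppp1r3c: gggaccggttCACGTGatctggcttt
Acot4: ttcacaacacCACGTGggagtggcga
Slc16a12: ttgcaagatgCACGTGcaggagactt
Gpr146: gggacggggtCACGTGtgtacacagc
Atg14: aacaaaatccCACGTGactggccctg
Wdr81: cctttagagaCACGTGcggttgtttc
They lie at chr10:85185099-85185124 (minus strand) for Cry1, chrX:36328354-36328379 (plus) for Lonrf3, chr19:36736693-36736718 (minus) for Ppp1r3c, chr12:84038303-84038328 (plus) for Acot4 and chr19:34747553-34747578 (minus) for Slc16a12. Those of the genes that fell lie at chr5:139380628-139380653 (plus) for Gpr146, chr14:47568420-47568445 (minus) for Atg14 and chr11:75454726-75454751 (minus) for Wdr81. The windows of Nr1d1, Nr1d2, Dbp and Noct held no CACGTG. Of the called genes, those that rose and those that fell thus both included carriers of the same letters. The share lay under that of the array among genes that rose and over it among those that fell, and neither was tested. Of these 8, Acot4, an acyl-CoA thioesterase gene, had an adjusted p of 0.0257, was detected on 1 of the 6 arrays and kept its call only without ZT19 replicate 2 (0.0508 to 0.126 without each of the others). Slc16a12, of the monocarboxylate transporter family, had an adjusted p of 0.0426 and kept its call only without ZT7 replicate 1 (otherwise 0.0636 to 0.265). Wdr81 had an adjusted p of 0.0207 and kept its call only without ZT7 replicate 1 or ZT19 replicate 1 (otherwise 0.0562 to 0.131).

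The 6 arrays had median signals of 92.05 to 107.72 and detected 49.2% to 66.2% of their probe sets, and replicates of a group correlated at 0.972 to 0.991 across probe sets. TSR ZT19 replicate 3 stood apart: it had the lowest detection of the 24 liver arrays and carried pancreas transcripts. The summed signal of the 44 measured genes of the pancreas list was 30669 on that array and 2100 to 4122 on the other 23 liver arrays, including 2617 and 2529 on TSR ZT19 replicates 1 and 2. Try10, a trypsinogen, read 8065 there and 51 and 62 on the other TSR ZT19 arrays, and Try4, Cpb1, Try5 and Ctrb1, further digestive enzyme precursors, read 2392, 2251, 2157 and 1576. None of the 44 passed the limma test at an adjusted p under 0.05, 9 had an unadjusted p under 0.05, and none was called by the methods' t-test. The list's median log2 change was 0.66 with this array and fell to -0.06 without it. Results that need this array are named below. The 14 hepatocyte markers, albumin and the like, summed to 122107 to 126158 at ZT7 and 118862 to 129128 at ZT19, with a median log2 change of -0.00 and no call.

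**Figure D1:**
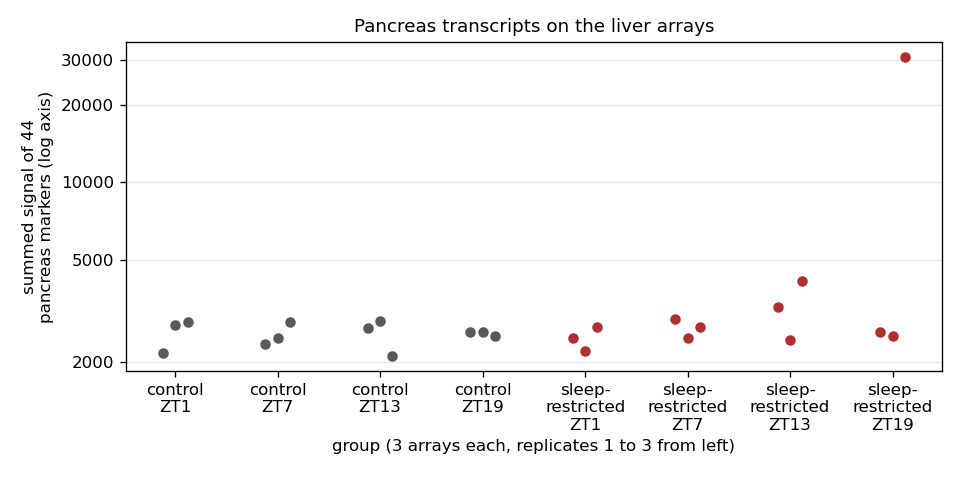
Summed signal of the 44 measured genes of the pancreas list on each of the 24 liver arrays (log axis), in 8 groups of 3 arrays, with TSR groups in red. TSR ZT19 replicate 3 stands at 30669 and no other array is above 4122.

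The contrast of ZT19 with ZT7 in TSR liver called 133 probe sets higher (0.548% of those tested) and 95 lower (0.392%) at an adjusted p under 0.05 in limma's moderated test, with the spread estimated over all 24 liver arrays. These 228 probe sets stood for 210 genes, and on each of them all 3 arrays of one time lay beyond all 3 of the other. That separation alone was met by 8.11% of all probe sets upward and 8.20% downward. The median log2 change was 0.67 among those higher and -0.67 among those lower, and 45 changed by more than 1 on that scale. The deposited detection call was present on all 6 arrays for 156 of the 228 and on none of them for 15. In whole liver, fewer cells of a type and less RNA per cell cannot be told apart. The calls depended on single arrays: 39 of the 228 probe sets were called whichever of the 6 arrays was left out, and 115 were called without TSR ZT19 replicate 3. With the 6 arrays alone limma called 0 probe sets in either direction, although 2200 had an unadjusted p under 0.05 against 2554 in the fit over 24 arrays.

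The clock repressors moved in opposite directions. Nr1d1 read 1171, 3305 and 3147 at ZT7 and 168, 268 and 275 at ZT19, a log2 change of -3.31 ± 0.40 (SE), or 9.94-fold (adjusted p = 0.000397), and it had the lowest log2 change of all 21360 genes. Nr1d2, the second REV-ERB gene, read 1702, 1832 and 1941 at ZT7 and 756, 953 and 522 at ZT19 (log2 change -1.34 ± 0.23, adjusted p = 0.00626). The ZT7 arrays lay above the ZT19 arrays for both, and the Nr1d1 signal of ZT7 replicate 1 was well under that of the other ZT7 arrays. Cry1 went the other way, with 175, 105 and 100 at ZT7 and 423, 343 and 391 at ZT19 (log2 change 1.65 ± 0.19, adjusted p = 0.000312). Per2 read 309, 174 and 200 at ZT7 and 407, 554 and 453 at ZT19 (log2 change 1.08 ± 0.20, adjusted p = 0.0124). The call for Per2 was lost without ZT7 replicate 2, ZT7 replicate 3 or ZT19 replicate 2 (adjusted p 0.0777 to 0.0899), and those of Nr1d1, Nr1d2 and Cry1 were kept without any one of the 6 arrays. Cry2, Per1 and Per3 did not pass, at log2 changes of 0.05, 0.05 and -0.10.

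Over the 4 sampling times of TSR liver, Nr1d1 had means of 663, 2541, 594 and 237 in order from ZT1 to ZT19, so the contrast set its highest mean against its lowest. Cry1 averaged 245, 127, 195 and 386 at the same times, again with ZT7 and ZT19 at the ends of its range, the other way round. Ppp1r3b was also lowest at ZT7, with means of 2015, 846, 1916 and 2248.

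Among the clock activators, Arntl read 463, 492 and 252 at ZT7 and 1096, 742 and 638 at ZT19. The groups did not overlap and the log2 change was 1.06 ± 0.39, yet the adjusted p was 0.258. Clock, the partner of Arntl, and Rora, a ROR receptor gene, did not pass either, at log2 changes of 0.31 and 0.23, and Npas2 was detected on none of the 6 arrays.

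Among the 10 clock output genes, Dbp and Noct were called, in opposite directions. Dbp, a transcription factor that binds D-boxes, read 791, 792 and 1007 at ZT7 and 137, 201 and 194 at ZT19 (log2 change -2.30 ± 0.39, adjusted p = 0.0057). Noct, which encodes nocturnin, read 185, 137 and 193 at ZT7 and 328, 453 and 333 at ZT19 (log2 change 1.11 ± 0.21, adjusted p = 0.015). The arrays of the 2 times were fully apart for both genes. The call for Noct was lost without ZT7 replicate 2 (adjusted p = 0.108) or ZT19 replicate 2 (0.0908), and that of Dbp was kept throughout. Tef and Hlf, the relatives of Dbp, had log2 changes of -0.36 and 0.19 with adjusted p values of 0.497 and 0.669.

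**Figure D2:**
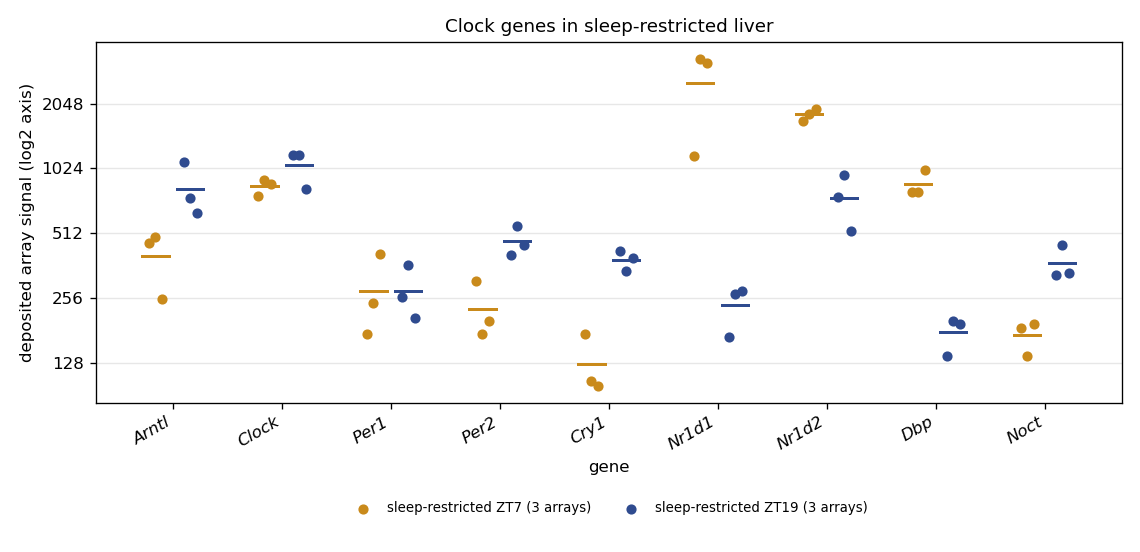
Deposited signal (log2 axis) of 9 clock genes on the 3 TSR ZT7 arrays and the 3 TSR ZT19 arrays, with a bar at each mean. Nr1d1, Nr1d2 and Dbp lie lower at ZT19, Arntl, Per2, Cry1 and Noct lie higher, and Clock and Per1 overlap between the times.

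ZT7 replicate 1 lay nearest to ZT19 for most of the largest changes, which this same contrast picked. Of the 15 largest rises and 15 largest falls, 23 had their ZT7 signal closest to the ZT19 mean on that array, 1 on replicate 2 and 6 on replicate 3. Over all 24261 probe sets the closest ZT7 array was replicate 1 for 37.0%, replicate 2 for 28.9% and replicate 3 for 34.1%. For example, Rgs16, a regulator of G protein signalling, read 150, 809 and 1739 at ZT7 and 62, 44 and 102 at ZT19, which gave a log2 change of -3.19 with an SE of 0.67 (adjusted p = 0.027). That call was lost without ZT7 replicate 2 or 3 or ZT19 replicate 1 or 2 (adjusted p 0.0821 to 0.172). Lonrf3, a RING finger gene with an E-box in its promoter window, read 237, 123 and 88 at ZT7 against 385, 357 and 326 at ZT19 (log2 change 1.38 ± 0.23, adjusted p = 0.00542). Nat8f5, of an acetyltransferase family, had the same order among its ZT7 arrays, 388, 223 and 161, against 639, 916 and 615 (log2 change 1.56 ± 0.24, adjusted p = 0.00398). What sets ZT7 replicate 1 off was not tested.

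Glycogen genes that target protein phosphatase to glycogen rose. Ppp1r3b, the main such subunit in liver, read 966, 844 and 727 at ZT7 and 2043, 2270 and 2431 at ZT19. The log2 change was 1.42 ± 0.14, or 2.67-fold, with an adjusted p of 4.32e-05, and no array was needed for the call. Ppp1r3c, which encodes a second glycogen-targeting subunit and carries an E-box, read 339, 497 and 515 at ZT7 and 1143, 718 and 1270 at ZT19 (log2 change 1.20 ± 0.25, adjusted p = 0.0237). Its call was lost without any one of the arrays other than ZT19 replicate 2 (adjusted p 0.0598 to 0.0939). These were the only called members among 16 genes of glycogen and glucose uptake, whose median log2 change was 0.01 against 0.02 over all 21360 genes, of which 0.524% were called higher and 0.421% lower.

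Of 22 genes of glycolysis and gluconeogenesis, Pdk4, a kinase that inhibits pyruvate dehydrogenase, was the single one called. It read 172, 140 and 90 at ZT7 and 353, 248 and 376 at ZT19 (log2 change 1.31 ± 0.25, adjusted p = 0.0133). The call was lost without ZT7 replicate 2 or 3 or ZT19 replicate 1 or 3 (adjusted p 0.0507 to 0.104). Pck1, which encodes the cytosolic PEPCK of gluconeogenesis, averaged 5631 ± 776 (SD, n = 3) at ZT7 and 3746 ± 918 at ZT19, with an adjusted p of 0.115. Of the list's changes 11 of 22 were above 0, and their median was 0.00.

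Lipogenic genes lay mostly higher at ZT19. Of 18 measured, 16 had a log2 change above 0, 3 passed the test and none passed downward, and the median was 0.29. Over all genes 53.4% were above 0. Srebf1, the sterol and insulin regulated transcription factor of fatty acid synthesis, read 1042, 909 and 709 at ZT7 and 1185, 1673 and 1651 at ZT19 (log2 change 0.76 ± 0.16, adjusted p = 0.0239). Thrsp, an insulin and thyroid hormone responsive lipogenic gene, read 2398, 1236 and 957 at ZT7 and 2834, 2690 and 4039 at ZT19 (log2 change 1.15 ± 0.25, adjusted p = 0.0314). Fasn, fatty acid synthase, read 2929, 2400 and 1756 at ZT7 and 2969, 3721 and 4765 at ZT19 (log2 change 0.70 ± 0.16, adjusted p = 0.0477). ZT7 replicate 1 was the highest ZT7 array for all 3 genes, and for Fasn it read 2929 where the lowest ZT19 array read 2969. No member of the list kept its call without ZT19 replicate 3, the array with pancreas transcripts, at adjusted p values of 0.0803, 0.112 and 0.177. The median of the list was 0.23 without it. In control liver the median was 0.20, with 6 members called higher. The 3 calls were also lost without ZT7 replicate 2 or 3 or ZT19 replicate 2 (adjusted p 0.0634 to 0.264), and that of Thrsp without ZT19 replicate 1 (0.0622).

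Cholesterol synthesis showed the same lean, with 21 of 23 measured genes above 0 at a median log2 change of 0.25, which was 0.26 without ZT19 replicate 3. In control liver the median of the list was -0.05, with 2 called higher and 1 lower, and 0 members of this or the lipogenic list passed the test of the difference between TSR and control. Pmvk and Lss passed. Lss, lanosterol synthase, read 498, 409 and 332 at ZT7 and 719, 714 and 877 at ZT19 (log2 change 0.91 ± 0.17, adjusted p = 0.0124), and lost its call without ZT7 replicate 2 or 3 or ZT19 replicate 3 (adjusted p 0.053 to 0.104). Pmvk, phosphomevalonate kinase, read 318, 304 and 255 at ZT7 and 441, 437 and 678 at ZT19 (adjusted p = 0.0105). Its detection call was absent on all 6 arrays, so no fold is given, and it lost its call without ZT7 replicate 3 (0.0823). Sqle, squalene epoxidase, had a log2 change of 0.49 with an adjusted p of 0.209. Of further genes of lipid handling that were named after their values had been seen, Acsl3, an acyl-CoA synthetase, rose from 399 ± 56.2 to 745 ± 77.9 (SD, n = 3 each, adjusted p = 0.00668), a call lost without ZT7 replicate 3 (0.0604). Mlycd, malonyl-CoA decarboxylase, fell from 532 ± 15.1 to 338 ± 23.3 (adjusted p = 0.0088), a call lost without ZT7 replicate 2 or 3 or ZT19 replicate 2 (0.0507 to 0.0575). Pnpla2, the lipase that opens triglyceride breakdown, fell by 0.60 ± 0.14 on the log2 scale (adjusted p = 0.0494) and held its call only without ZT7 replicate 1, of the 6 arrays left out in turn, the others giving 0.055 to 0.264.

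**Figure D3:**
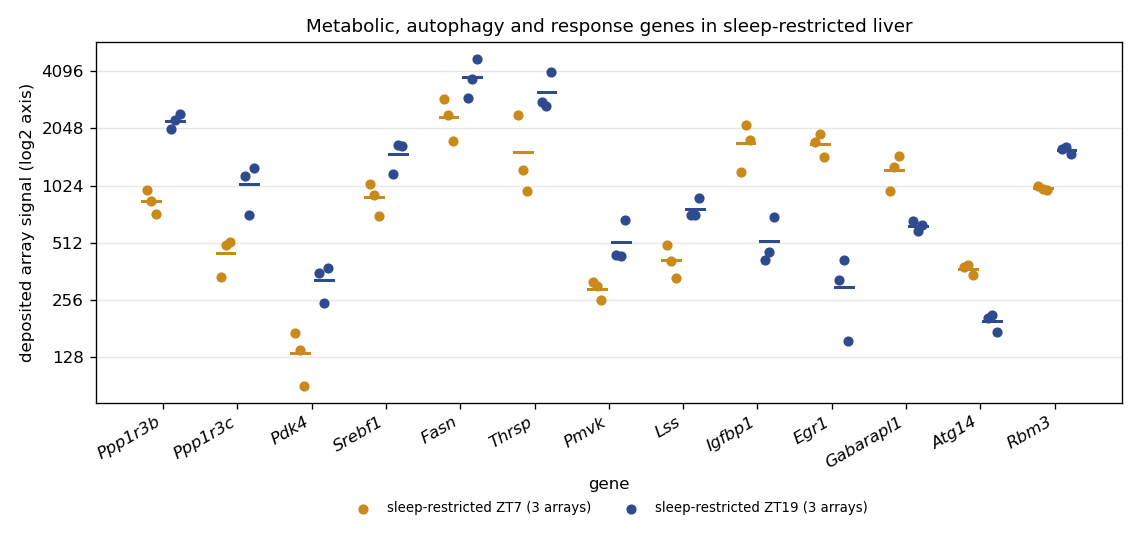
Deposited signal (log2 axis) of 13 metabolic, autophagy and response genes on the 3 TSR ZT7 arrays and 3 TSR ZT19 arrays, with a bar at each mean. Igfbp1, Egr1, Gabarapl1 and Atg14 lie lower at ZT19 and the other 9 lie higher, and Rbm3 reads 969 to 1018 at ZT7 and 1500 to 1626 at ZT19.

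Genes of insulin and FOXO signalling leaned downward, with 11 of 16 below 0, a median of -0.18 and 10 at an unadjusted p under 0.05, where 46.6% of all genes were below 0 and 10.2% had such a p. Igfbp1, whose product binds insulin-like growth factors in plasma and whose transcription insulin represses, was the one member called. It read 1203, 2136 and 1785 at ZT7 and 414, 456 and 699 at ZT19 (log2 change -1.71 ± 0.32, or 3.26-fold, adjusted p = 0.0124). The call was lost without ZT7 replicate 2 or 3 or ZT19 replicate 1 or 2 (adjusted p 0.0581 to 0.0825). Trib3, a pseudokinase that binds AKT, had an adjusted p of 0.0527 at a log2 change of -0.95. Txnip, which encodes a thioredoxin-binding protein that limits glucose uptake, is not on this list and was named as one of the largest falls. It read 1107, 1771 and 2021 at ZT7 and 774, 708 and 980 at ZT19 (log2 change -0.96 ± 0.19, adjusted p = 0.0181). Its call was lost without ZT7 replicate 2 or 3 or ZT19 replicate 1 or 2 (0.066 to 0.133).

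Autophagy genes lay lower at ZT19. The list of 48 measured genes was drawn up after the fall of Gabarapl1 and Atg14 had been seen, so its counts are a description. Of the 48, 35 had a log2 change below 0 (46.6% of all genes did). In TSR liver 7 were called lower (0.421% of all genes) and none higher (0.524%), and the median was -0.16. In control liver the median was -0.20, with 9 called lower and 1 higher, where 2.72% and 2.85% of all genes were called. Gabarapl1, an ATG8 family protein of the autophagosome, read 963, 1289 and 1466 at ZT7 and 669, 588 and 631 at ZT19 (log2 change -0.96 ± 0.14, adjusted p = 0.00265). Atg14, a subunit of the lipid kinase complex that starts autophagosomes, read 380, 391 and 345 at ZT7 and 205, 214 and 174 at ZT19 (log2 change -0.92 ± 0.11, adjusted p = 0.000408), and its E-box begins a single base before the start site. Flcn, folliculin, a regulator of nutrient signalling at the lysosome, read 326, 487 and 493 at ZT7 and 232, 248 and 241 at ZT19 (log2 change -0.83 ± 0.14, adjusted p = 0.00542). These 3 calls were kept without any one of the 6 arrays. Wipi1, Wipi2, Wdr45 and Nbr1 also fell, with log2 changes of -0.55, -0.51, -0.45 and -0.36, and each call was lost without at least 3 of the arrays, those of Wipi1, Wdr45 and Nbr1 without ZT19 replicate 3 (adjusted p = 0.15, 0.0872 and 0.0935). Wipi2 lost its call without ZT7 replicate 2 or 3 or ZT19 replicate 2 (0.0678 to 0.108). Map1lc3b and Ulk1 had changes of -0.67 and -0.70 that did not pass (0.13 and 0.182).

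Egr1, an immediate early transcription factor, read 1744, 1907 and 1441 at ZT7 and 325, 416 and 156 at ZT19. Its log2 change was -2.61 ± 0.46, or 6.11-fold (adjusted p = 0.00861), and the detection call was present on 1 array of each time. The call was lost without ZT7 replicate 2 (0.053). In the other TSR groups Egr1 averaged 154 at ZT1 and 88.6 at ZT13, so ZT7 stood above the other 3 times, and control liver averaged 353 at ZT7 and 197 at ZT19. Of the 17 measured immediate early genes 15 had a change below 0, where 46.6% of all genes did, with a median of -0.25. An unadjusted p under 0.05 was met by 5 (10.2% of all genes), and 2 passed, both lower, where 0.421% of all genes were called lower. In control liver the median of the list was -0.11, with 1 called lower and 1 higher. Btg2, an antiproliferative early gene, was the second (214, 283 and 211 at ZT7 and 108, 152 and 132 at ZT19, adjusted p = 0.0392), and it lost its call whichever of the 6 arrays was left out (0.057 to 0.229). Junb had an adjusted p of 0.0574, Zfp36 of 0.117, and Fos averaged 93.2 and 81.9. Spry4, an inhibitor of growth factor signalling, was among the largest falls, with 252, 280 and 309 at ZT7 and 138, 146 and 113 at ZT19 (adjusted p = 0.00398). It was detected on 1 ZT7 array and on no ZT19 array.

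Of 21 genes of cell cycle and growth arrest 15 had a change below 0, where 46.6% of all genes did. The median of the list was -0.26 against 0.03 in controls, and Btg2, which is on this list too, was the one called. Cdkn1a, which encodes the cell cycle inhibitor p21, averaged 67.8 ± 24.6 at ZT7 and 142 ± 37.4 at ZT19 (SD, n = 3 each), with an adjusted p of 0.142. Mki67, a marker of proliferating cells, averaged 105 ± 36.9 and 64.6 ± 6.51, with an adjusted p of 0.217.

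Of 17 glucocorticoid-responsive genes 1 was called higher and 1 lower, where 0.524% and 0.421% of all genes were called. A log2 change below 0 was found for 10 (46.6% of all genes), and 8 had an unadjusted p under 0.05 (10.2%). In control liver 4 were called higher and 2 lower, where 2.85% and 2.72% of all genes were called. Tsc22d3, which encodes GILZ, read 434, 382 and 413 at ZT7 and 650, 865 and 709 at ZT19 (adjusted p = 0.00542), with the detection call absent on 5 of the 6 arrays. Klf9 read 1188, 1694 and 1716 at ZT7 and 937, 943 and 799 at ZT19 (log2 change -0.76 ± 0.18, adjusted p = 0.0442), and kept its call only without ZT7 replicate 1 (0.096 to 0.222 without each of the others, 0.133 without ZT19 replicate 3). Both genes are induced by corticosterone in other settings, and an effect of the hormone was not tested here.

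Rbm3, an RNA-binding protein induced by cold, rose with little spread at either time. It read 1018, 981 and 969 at ZT7 and 1597, 1626 and 1500 at ZT19 (log2 change 0.67 ± 0.11, adjusted p = 0.0053) and kept its call without any one of the 6 arrays. Probe sets under the same symbol, 2 more, gave log2 changes of 0.68 with nearly parallel signals on every array, so the 3 are not separate evidence, and the remaining one, at signals of 69 to 86, did not pass. The methods' t-test called 2 probe sets in the whole contrast, both of Rbm3. Rbm3 was the only one called among 22 measured heat shock and temperature genes, where 0.524% of all genes were called higher. Of the 22, 14 were below 0, as were 46.6% of all genes, and the median was -0.06. In control liver the median of the list was 0.36, with 6 called higher (2.85% of all genes) and 0 lower. The control ZT19 arrays share a deviation described below. The difference between TSR and control passed for 2 members. Cirbp, the cold-induced relative of Rbm3, did not pass in TSR (adjusted p = 0.691) and was detected on no TSR ZT7 array.

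Single members were called in further lists. Nr1h4, the bile acid receptor FXR, read 795, 732 and 887 at ZT7 and 1172, 1191 and 1232 at ZT19 (log2 change 0.58 ± 0.10, adjusted p = 0.00558), a call lost without ZT7 replicate 2 (0.0508). Cyp7a1, the rate-limiting enzyme of bile acid synthesis, read 2596, 2028 and 2082 at ZT7 and 5186, 3741 and 2707 at ZT19, with an adjusted p of 0.0527. With 1 of the 6 arrays left out the adjusted p ran from 0.0128 (without ZT19 replicate 3) to 0.235, and 2 of these 6 fits called it. Prodh, proline dehydrogenase, was the one gene called of 32 of amino acid catabolism and the urea cycle (log2 change 0.56 ± 0.13, adjusted p = 0.0365), and lost its call without ZT7 replicate 2 or 3 or ZT19 replicate 1 or 3 (0.0872 to 0.19). Among cell type markers Stab2, of the sinusoidal endothelium, passed (0.33 ± 0.08 on the log2 scale, adjusted p = 0.0417) and lost its call whichever array was left out (0.0791 to 0.172). The other 9 endothelial markers did not pass.

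Limma called 0 of 25 genes of fatty acid oxidation and ketogenesis, of which 6 had an unadjusted p under 0.05. Over all genes it called 0.524% higher and 0.421% lower, and 10.2% had such an unadjusted p. It likewise called 0 of 29 genes of endoplasmic reticulum stress (5 unadjusted), 0 of 29 of ribosome biogenesis (5), 0 of 23 of the interferon response (5), 0 of 19 of xenobiotic and heme metabolism (3) and 0 of 18 of the acute phase (0). The methods' t-test called none of these either. A p that misses the threshold does not show that these genes were level between the times.

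**Figure D4:**
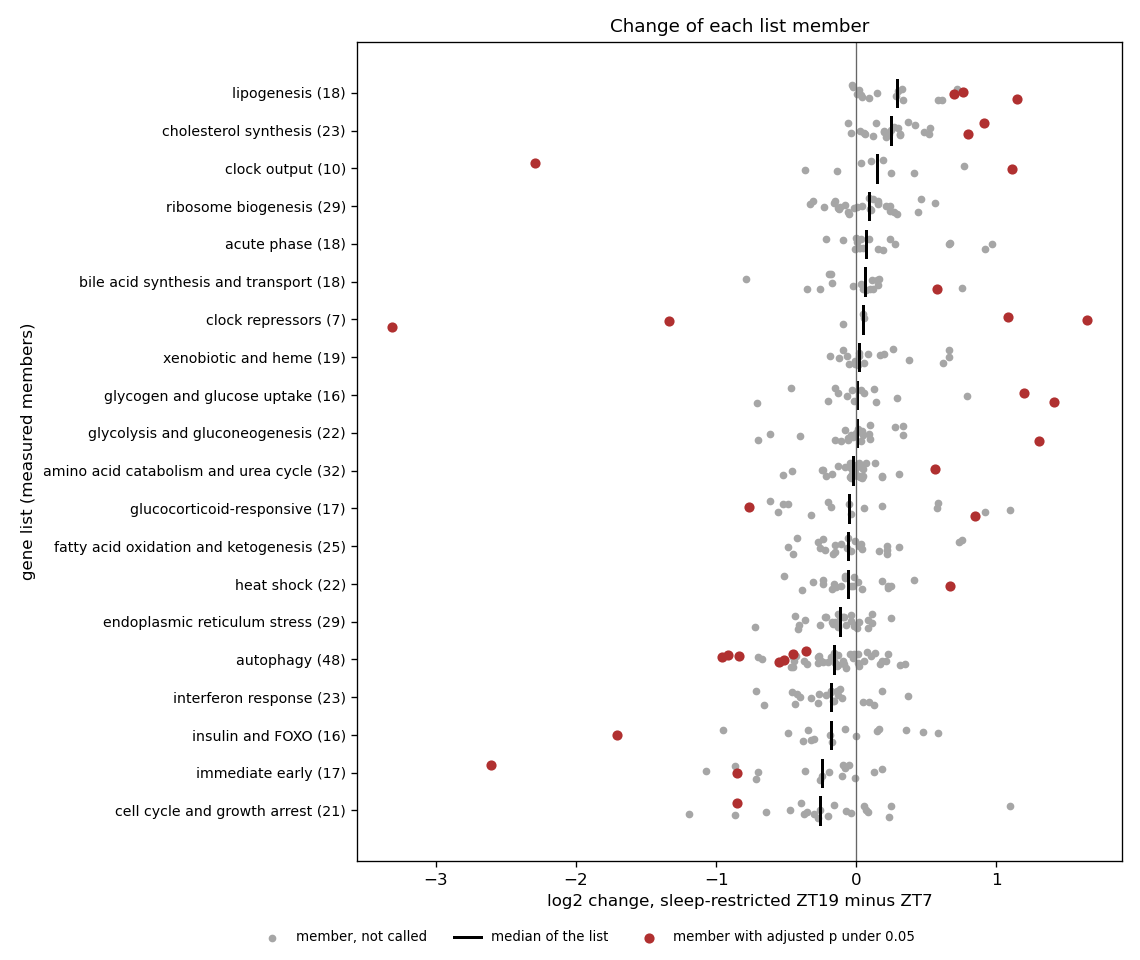
Log2 change from ZT7 to ZT19 in TSR liver for every measured member of 20 gene lists, autophagy included, 1 probe set per gene, with called members in red and a bar at the median of each list. The list of clock activators and ROR receptors, with a median of 0.31, is not drawn. Among the lists drawn, the highest medians are those of lipogenesis (0.29) and cholesterol synthesis (0.25). The lowest are those of cell cycle and growth arrest (-0.26), immediate early genes (-0.25), insulin and FOXO (-0.18) and the interferon response (-0.18). The clock repressors have the widest spread.

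Further large changes kept their calls without any one array. The largest rise by the rule was that of A630005I04Rik, an unnamed transcript, with 86, 63 and 64 at ZT7 and 275, 198 and 236 at ZT19 (log2 change 1.73 ± 0.16, adjusted p = 3.01e-05). Tsku, tsukushi, a secreted protein made by liver, read 960, 479 and 887 at ZT7 and 1891, 2346 and 1578 at ZT19 (log2 change 1.37 ± 0.19, adjusted p = 0.00204). Chka, choline kinase, read 171, 278 and 199 against 419, 437 and 518 (log2 change 1.11 ± 0.17, adjusted p = 0.00398). Among the falls, Slc25a30, a mitochondrial carrier, read 492, 695 and 653 at ZT7 and 205, 147 and 129 at ZT19 (log2 change -1.95 ± 0.32, adjusted p = 0.00542). Tcp11l2 read 364, 469 and 408 against 201, 182 and 110 (log2 change -1.38 ± 0.21, adjusted p = 0.00398). Fbxo21, a ubiquitin ligase subunit, read 1040, 1360 and 1715 against 805, 698 and 517 (log2 change -1.02 ± 0.17, adjusted p = 0.0053). The ZT7 and ZT19 arrays of these genes were fully apart, as the rule that named them required. Transcripts with little annotation made up several more of the largest rises: Gm10843, 4921513D11Rik, C730037M02Rik and BC029214 averaged 157, 99.6, 49.0 and 259 at ZT7 and 399, 252, 101 and 534 at ZT19 (adjusted p = 0.0391, 0.00542, 0.00861 and 0.00542). The call of Gm10843 was kept without ZT19 replicate 3 but lost without each of the other 5 arrays (0.0811 to 0.186), and that of C730037M02Rik was lost without ZT7 replicate 2 or 3 or ZT19 replicate 2 (0.0508 to 0.0665). Mcm10, a replication factor, fell from 511 ± 42.0 to 259 ± 48.4 (SD, n = 3, adjusted p = 0.00398) with the detection call present on 1 of the 6 arrays. Gpr146, a receptor that acts in hepatic cholesterol regulation, read 1037, 1542 and 1282 at ZT7 and 672, 645 and 517 at ZT19 (adjusted p = 0.0053). Dnmt3b, a DNA methyltransferase, read 110, 109 and 94 against 249, 168 and 227 (adjusted p = 0.0139). The detection call was absent on all 6 arrays for both, so no fold is given, and the call of Dnmt3b was lost without ZT7 replicate 2 or 3 or ZT19 replicate 1 (0.0553 to 0.0937).

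The same time contrast in control liver, which compares 6 other arrays but shares the estimate of the spread over 24 arrays, called 689 probe sets higher (2.84%) and 612 lower (2.52%). Of the 228 TSR calls 88 were called in the same direction in controls, which is 38.6% of the TSR calls and 6.76% of the 1301 control calls. The difference of the 2 changes was tested directly, by the interaction contrast, and 17 probe sets passed (0.0701%), 8 of them more positive in TSR and 9 more negative, for 12 genes. All 3 control ZT19 arrays belong to a set of 5 liver arrays that share a deviation. The score of this deviation takes the mean departure of 2 of them, TSR ZT1 replicate 3 and control ZT7 replicate 3, from their fellow replicates as weights. On it these 5 read 32.3 to 41.4 and no other liver array was above 20.0. Since all control ZT19 arrays carry it, control ZT19 and this deviation cannot be told apart by leaving arrays out. The differences are also given with the score as a covariate, but that fit cannot separate them either. The score is drawn from these same values, and the 3 control ZT19 arrays read alike on it.

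For the clock genes named here the difference did not pass. Nr1d1 had log2 changes of -3.31 ± 0.40 in TSR and -4.66 in controls (difference 1.34 ± 0.57, adjusted p = 0.365). Cry1 rose by 1.65 and 2.30 (difference -0.65 ± 0.27, adjusted p = 0.367), and Dbp changed by -2.30 and -2.81 (adjusted p = 0.769). Arntl rose by 2.44 in controls, from a mean of 157 to 843, where the TSR means were 402 and 825 (difference -1.38 ± 0.55, adjusted p = 0.333). Ppp1r3b had nearly the same change in both, 1.42 and 1.36 (difference 0.06 ± 0.20, adjusted p = 0.95). Igfbp1 changed by -0.06 in controls, where it averaged 329 at ZT7 against 1708 in TSR, yet the difference of the changes, -1.64 ± 0.45, had an adjusted p of 0.178.

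Of the genes that rose in TSR, 4 differed from controls in their change. Rbm3 read 1448, 1400 and 1304 at control ZT7 and 1244, 1031 and 1219 at control ZT19, so that TSR was the lower of the 2 at ZT7 and the higher at ZT19. Its difference was 0.92 ± 0.15 (adjusted p = 0.0152, 0.0232 with the score). Cyp2j9, a cytochrome P450 of the family that oxidises arachidonic acid, read 219, 220 and 224 at TSR ZT7 and 386, 497 and 413 at TSR ZT19, against 360, 369 and 367 and then 343, 311 and 310 in controls. Its difference was 1.15 ± 0.16 (adjusted p = 0.00243, 0.00569 with the score), and its call in TSR was kept without any one array. In both genes the TSR ZT7 arrays were the lowest of the 4 groups. Lipg, endothelial lipase, and Ciapin1, an iron-sulphur cluster assembly factor, rose in TSR (0.63 and 0.47) and fell in controls (-0.54 and -0.43), with differences of 1.17 ± 0.19 and 0.90 ± 0.14 (adjusted p = 0.0152 and 0.014, with the score 0.0317 and 0.0232). In TSR alone their calls were lost without most single arrays, among them ZT19 replicate 3 (0.0666 and 0.0605).

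The largest difference was that of Zfp949, a zinc finger gene, which read 39 to 57 on the 6 TSR arrays and 46, 49 and 57 at control ZT7 but 226, 276 and 299 at control ZT19 (difference -2.42 ± 0.25, adjusted p = 0.000229, 0.000552 with the score). Stip1, an HSP70 and HSP90 co-chaperone, averaged 1622 ± 225 at TSR ZT7 and 1371 ± 59.0 at TSR ZT19 (SD, n = 3), while controls read 989, 933 and 821 at ZT7 and 1359, 1729 and 1578 at ZT19 (difference -0.997 ± 0.18, adjusted p = 0.0276, 0.0302 with the score). Hax1 was called higher in controls, at 0.58, and had a difference of -0.89 (adjusted p = 0.0152, 0.0232 with the score). Rad51c passed at the same adjusted p values, with signals of 45 to 69 on the 6 TSR arrays, 39 to 46 at control ZT7 and 76 to 82 at control ZT19. It was detected on no ZT7 array of either group, so no difference is given. For Zfp949 control ZT19, whose arrays all had the high score, was the one group that stood apart, whereas for Stip1 the control ZT7 arrays were the lowest of the 4 groups.

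**Figure D5:**
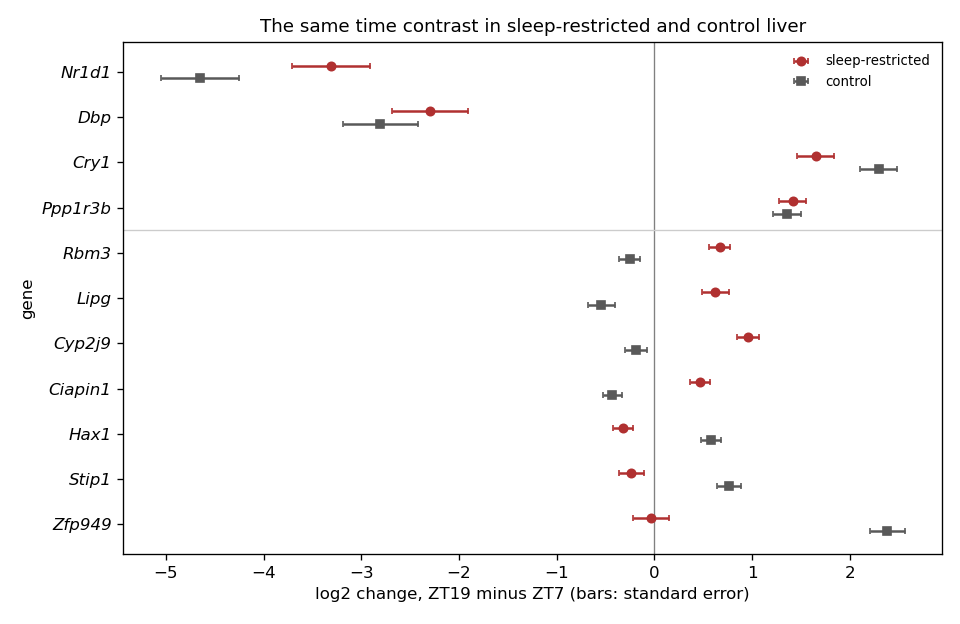
Log2 change from ZT7 to ZT19 in TSR liver (red circles) and control liver (grey squares), each from 3 against 3 arrays. Bars are standard errors from the main fit, with the spread estimated over all liver arrays. A gene therefore has the same standard error in TSR and control, and the bars do not show each contrast's own spread. The 4 genes above the line change the same way in both, and below it are the 7 genes of the 10 named for their difference that were detected on at least 1 array of each group, with differences from 1.17 for Lipg to -2.42 for Zfp949.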

How the data were processed

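Total RNA of TSR and control liver was hybridised to Affymetrix Mouse Gene 1.0 ST arrays. The deposited signals are intensity values on a linear scale that the authors normalised with d-Chip (version and steps not given in the sources used here), with a lowest value of 1, beside detection p-values and calls in the other deposited columns. The number of arrays, 3 per group, limits the precision. Signals were set to at least 1, put on the log2 scale and fitted with limma 3.58.1 in R 4.3.3 as 8 means over 24 liver arrays. Benjamini-Hochberg adjustment ran over 24261 probe sets with a symbol, and a probe set was called under 0.05. An exact permutation test of 3 against 3 arrays cannot go below p = 0.1 (two-sided), so none was used. On simulated data the fit was checked for recovery of known changes. Symbols were updated through RefSeq tables (GRCm38.p6): 23125 of 24261 probe sets matched, 18390 by accession. Gene lists took the probe set of highest mean per gene.

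The members and the gene lists were chosen with earlier results of these data known. Genes were named by rule: Nr1d1, Dbp, Cry1 and Ppp1r3b, the 15 largest rises and 15 largest falls that were fully separated, were called also without TSR ZT19 replicate 3 and were not pancreas genes, up to 6 called members of each list and all clock genes, the 5 largest differences from control in each direction, and the 5 highest pancreas genes. Others are described as named after seeing values: the autophagy list and its members, Acsl3, Mlycd, Pnpla2, Ogt, Pik3c2g, Spred2, Foxo3, Arrdc3, 4932438A13Rik, Acot4, Slc16a12, Wdr81, and the uncalled genes given for context. Values of some genes that the rule covers are not reported here. Alternatives covered filters, the arrays fitted, normalisation, pseudocount, variance model, array weights, a replicate block, the methods' t-test and single arrays left out.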

Additional observations from a re-analysis of the deposited data

Results flagged for a closer look

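The time contrast differed between TSR and control liver, by limma's interaction test, for the 10 named genes below. Values are the TSR change minus the control change on the log2 scale. Rbm3 (0.92), Lipg (1.17), Cyp2j9 (1.15) and Ciapin1 (0.90) were more positive in TSR. Zfp949 (-2.42), Stip1 (-0.997) and Hax1 (-0.89) were more negative. For the other 3 a group had no detected array, so the adjusted p stands in place of the difference: Il22ra1, a cytokine receptor chain, was more positive in TSR (0.0377), and Rad51c (0.0152) and Cpxcr1 (0.0427) were more negative. All 3 control ZT19 arrays carry the shared deviation of 5 arrays, and with its score as a covariate Il22ra1 and Cpxcr1 no longer passed (adjusted p = 0.0514 and 0.0617), while the other 8 did. That fit cannot separate the deviation from control ZT19. Cpxcr1 was detected on none of the 12 arrays compared, at signals of 9 to 25, Rad51c on none at ZT7 and Il22ra1 on none at TSR ZT7. Ccl21a, at 4 probe sets with the same values, and Tbcel passed as well, with differences of -0.86 and 0.73.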

How the results depend on the processing

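Calls of the ZT19 against ZT7 contrast in TSR liver (133 higher, 95 lower) and of its difference from control (17) rose with a filter on mean signal (229, 192 and 45) and with array weights (801, 624 and 3321). Unadjusted p-values gave 1274, 1280 and 2802. With the 12 TSR arrays alone 6 and 7 were called, with the 6 alone 0 and 0, and by the methods' t-test 2 and 0. The fit to 6 arrays had 2200 probe sets and the t-test 2216 at an unadjusted p under 0.05. Leaving out 1 of the 6 arrays gave 37 to 117 higher and 17 to 112 lower, and leaving out 1 of 12 gave 6 to 82 differences, with 82 without TSR ZT19 replicate 3 and 66 without control ZT7 replicate 3. The difference count was 43 with the detection filter, 31 with a pseudocount of 16 and 37 with an intensity trend. Chosen after seeing the data, a fit without the 5 set-apart arrays gave 78 and 53, and one with their score 129, 93 and 23. The cause of these shifts was not tested, beyond the fewer arrays or genes each setting holds by construction.

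Deviations from the group mean of TSR ZT7 and TSR ZT19 arrays with the same replicate number correlated at -0.18, 0.10 and 0.11. Other pairs of arrays were not compared, so whether replicate numbers mark a shared batch was not tested. A replicate block gave 112 higher, 79 lower and 17 differences. Quantile normalisation gave 130 and 84. No named called gene changed direction under any setting. For most settings this was fixed in advance, since the ZT7 and ZT19 arrays were fully apart for every called probe set. Leaving arrays out or changing the filter, pseudocount or variance model could therefore not reverse a change. Of the 1601 values of the 77 named called probe sets 459 lost the threshold, 218 of them in the fits to 12 or 6 arrays or by t-test. Dim probe sets have little signal over background, and detection calls were absent on all 6 arrays for 15 of the 228.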

Other observations

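Some further calls of the contrast, chosen after their values had been seen, belong to none of the groups above. Ogt, the transferase that adds O-GlcNAc to proteins, averaged 590 ± 12.7 at ZT7 and 951 ± 105 at ZT19 (SD, n = 3 each, adjusted p = 0.0124), and lost its call without ZT7 replicate 2 or 3 or ZT19 replicate 2 (adjusted p 0.0634 to 0.0777). Pik3c2g, a class II lipid kinase of liver, averaged 131 ± 21.4 and 252 ± 17.8 (adjusted p = 0.00204), a call kept without any one of the 6 arrays, with the detection call absent on all 3 ZT7 arrays. Spred2, which like Spry4 inhibits the Ras and ERK route, averaged 341 ± 34.2 and 208 ± 11.2 (adjusted p = 0.00951, 0.0712 without ZT7 replicate 2). Arrdc3, an arrestin relative of Txnip, read 1023, 2154 and 2655 at ZT7 and 812, 773 and 635 at ZT19 (adjusted p = 0.0293, 0.0622 to 0.189 without each array but ZT7 replicate 1). Foxo3 fell at one probe set (log2 change -0.57, adjusted p = 0.0252, 0.0501 to 0.122 with 1 array left out) and did not pass at the one with the higher mean over the 24 liver arrays (-0.48, 0.348). Of the 19 probe sets under the symbol 4932438A13Rik, 9 were called higher; they lie in 1 gene and are not separate evidence.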
